A study of Mus musculus with 6 samples.

Results

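Glutathione S-transferases (GSTs) and other genes linked to the transcription factor NRF2 were compared between livers of mice given HA (hippuric acid) and livers of mice given PBS (phosphate-buffered saline). The series describes the HA mice as an obese model and does not say how the model was made or whether the PBS mice were obese too. The genes were chosen by symbol from the 16638 genes measured, as every numbered gene of the alpha, mu, pi, theta, omega and kappa GST classes, the 3 microsomal GSTs and 13 named genes of the NRF2 pathway. This gave 37 genes, 24 of the GST family and 13 others. Each group held 3 liver samples, and the labels give no strain, sex, age or diet. PBS was the only control. HA was given intraperitoneally at 60 mg/kg on 2 occasions a week over 5 weeks, and the schedule of PBS is not stated. The labels do not say whether the 3 samples of a group are from different mice, and each sample is called a liver below for brevity. The p-values therefore describe the spread between samples, part of which may be technical. The series asks how HA acts on steatotic liver disease, and for these genes the question is which transcripts of glutathione conjugation and of the NRF2 response differ after HA.

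GSTs join the tripeptide glutathione to reactive, electrophilic molecules, which makes them soluble and lets the cell export them. The liver carries out most of the body's detoxification of this kind, and hepatocytes hold large amounts of alpha, mu and pi GSTs in the cytosol and of microsomal GSTs in membranes. NRF2, the product of Nfe2l2, is held at a low level by KEAP1, which passes it to a ubiquitin ligase for degradation. When electrophiles modify KEAP1, NRF2 accumulates, pairs with small MAF proteins and binds antioxidant response elements near genes for glutathione synthesis, quinone reduction and several GSTs. Because NRF2 is controlled mainly as a protein, the Nfe2l2 transcript is not a measure of its activity.

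Libraries held 37921444 to 39908844 fragments. Albumin took 7.53 to 9.82% of the fragments with PBS and 12.5 to 14.7% with HA. The summed level of 5 hepatocyte markers was 48878 to 60527 FPKM (fragments scaled to gene length and to library size) with PBS and 75209 to 89316 FPKM with HA, and no marker was at 0, so the liver label held. Most of these sums was albumin. Apoa1 was also higher in every HA library, while Ttr, Cps1 and Tat overlapped between groups. PBS replicate 1 also held transcripts of 5 adrenal genes, at a summed 61.2 FPKM against at most 0.391 FPKM in the other 5 libraries, and of 5 skeletal muscle genes, at 41.6 against at most 0.971 FPKM. The 7 pericentral hepatocyte markers summed to 9844 to 10412 FPKM with PBS and 3722 to 6645 FPKM with HA, and 1 of them, Oat, fell. Most of these sums was Cyp2e1, at 8131 to 8151 FPKM with PBS and 2930 to 5632 FPKM with HA. Glul, Oat, Cyp1a2, Rhbg and Lect2 were also lower in every HA library, while Lgr5 overlapped. The 5 red blood cell markers summed to 227 to 335 FPKM with PBS and 698 to 1319 FPKM with HA, and 3 of them rose. The difference came from the globin genes. Alas2, the marker on this list that is not a globin, went the other way, at 36.8 to 45.8 FPKM with PBS and 34.2 to 36.6 FPKM with HA. The 5 Kupffer cell and macrophage markers summed to 36.5 to 44.2 FPKM with PBS and 46.7 to 82.0 FPKM with HA, and none of the 5 passed. Of these markers only Marco was apart, at 1.46 to 7.27 FPKM with PBS and 10.3 to 14.9 FPKM with HA. Adgre1, Clec4f, Cd68 and Vsig4 overlapped between groups. Bile duct markers summed to 13.3 to 23.3 FPKM with PBS and 24.7 to 29.1 FPKM with HA, most of it Spp1. Sox9 was also higher in every HA library than in any PBS library, while Krt19, Krt7 and Epcam overlapped. The sums of periportal hepatocyte, stellate cell and sinusoidal endothelium markers overlapped between groups. In bulk tissue, fewer cells of a type and less RNA per cell cannot be told apart.

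Across these genes 1, the theta-class gene Gstt3, fell with HA, and 0 rose. Of the 37, 32 averaged 0.5 FPKM or more across the libraries and were tested with limma, a linear model fitted to log2(FPKM + 1) across all 10745 genes that passed this filter, with Benjamini-Hochberg adjustment over all of them and a threshold of 0.05. Over all genes tested, 0.512% passed as lower with HA and 0.289% as higher, 55 and 31 genes. With median centring these counts were 32 and 36, outside albumin 24 and 33, and with voom and TMM factors 15 and 28. The log2 change was negative for 27 of the 32 (84.4%), against 62.8% of all genes tested, with a median of -0.28 against -0.06. Without adjustment, 11 of the 32 were lower and 1 was higher at p under 0.05, against 13.1% and 4.61% of all genes. All 3 HA values lay below all 3 PBS values in 10 of the 32 (31.2%), against 19.2% of all genes, and all 3 lay above in 0 of the 32, against 6.47%. Without PBS replicate 1 that count was again 10, against 22.1% of all genes. Without HA replicate 1 it was 17, against 25.9%, and without HA replicate 2 it was 13, against 28.9%.

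The GST family and the other genes were not alike in these counts, and the difference between them was not tested. Among 21 tested GST-family genes the groups did not overlap in 8 (38.1%), all of them lower with HA, and the median log2 change was -0.36. Among the 11 other genes tested every HA value lay below every PBS value in 2 (18.2%), near the 19.2% of all genes, and the median was -0.13. Every HA value lay above every PBS value in 0 of the 21 and 0 of the 11, against 6.47% of all genes. The contrast is with these 11 genes and not with NRF2 targets at large. In a further list of NRF2 targets described below, 23 were tested and the median was -0.53. Every HA value lay below every PBS value in 65.2%, and 3 of the 23 had a positive change. That list was chosen with earlier results of these data known, so it is no independent measure of NRF2 targets. Without HA replicate 1 the GST-family count was 14, and 25.9% of all genes had every HA value below every PBS value. Without HA replicate 2 the count was 10, against 28.9% of all genes. Leaving out any other single library gave 8 or 9, against 22.1 to 28.0% of all genes. Without HA replicate 3 the GST-family median was -0.22 and that of the 11 other genes -0.155, so the gap between them depended on single libraries. The same medians were -0.31 and -0.07 without PBS replicate 2, and -0.445 and -0.20 without PBS replicate 3. After rescaling to the fragments outside albumin, the medians were -0.28 for the GST family, -0.05 for the 11 other genes and 0.00 for all genes tested. The counts of groups that did not overlap, here and for the other lists, were made on FPKM as deposited. They were not repeated outside albumin, whose share of fragments was larger with HA, so genes with a thin margin could overlap on that scale.

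**Figure D1:**
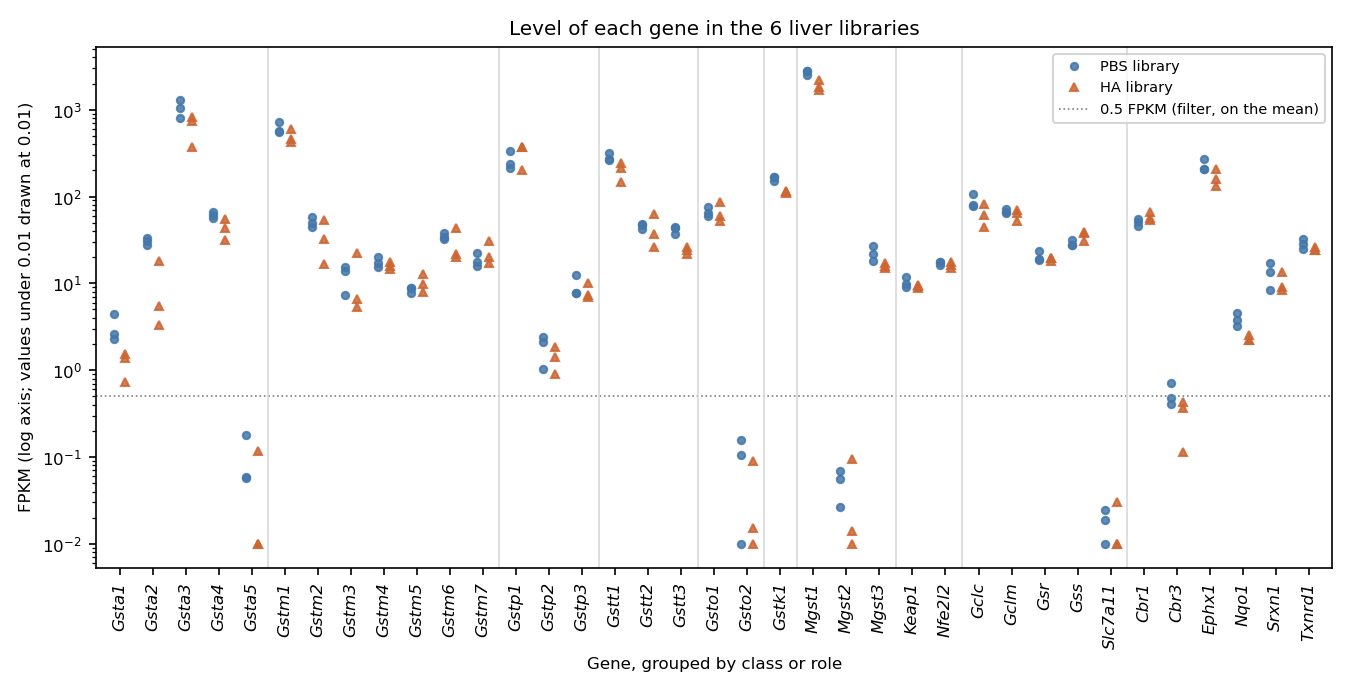
FPKM of the 37 genes in each library on a log axis (circles, PBS; triangles, HA), grouped by class or role. Mgst1, Gsta3 and Gstm1 have the highest means, and the genes with a mean under the dotted line at 0.5 FPKM were not tested.

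In summed level, GST-family transcripts were 5160.0, 5549 and 5786 FPKM in PBS replicates 1, 2 and 3 and 4207, 4004 and 3809 FPKM in HA replicates 1, 2 and 3. The HA sums all lay below the PBS sums, and their mean was 72.9% of the PBS mean. A few genes carried most of this level. Mgst1 made up 49.2% of the PBS sum, Gsta3 19.1% and Gstm1 11.2%, and with HA these shares were 47.5%, 16.1% and 12.3%. By class, the HA mean was 61.1% of the PBS mean for alpha, 69.7% for kappa, 70.3% for microsomal, 71.9% for theta, 81.8% for mu, 99.1% for omega and 120.2% for pi. For alpha, theta, kappa and microsomal GSTs every HA sum was below every PBS sum, while the sums of mu, pi and omega overlapped between groups. The margin was narrow for alpha, with 882 FPKM in HA replicate 1 and 895 FPKM in PBS replicate 2, and most of the alpha sum was Gsta3. The sums were not rescaled outside albumin.

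**Figure D2:**
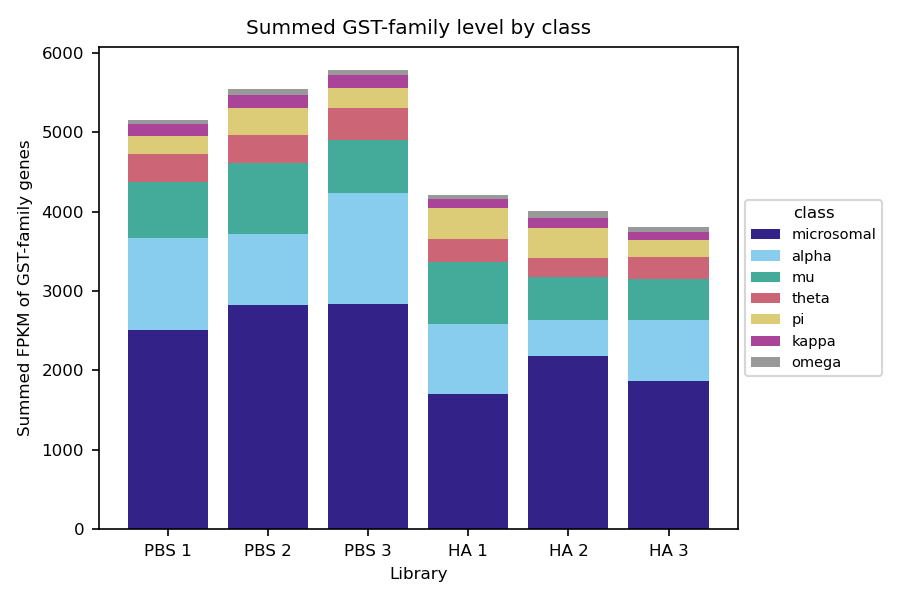
Summed FPKM of the 24 GST-family genes in each library, stacked by class. The PBS bars stand at 5160.0 to 5786 FPKM and the HA bars at 3809 to 4207 FPKM, with the microsomal class, nearly all of it Mgst1, as the widest band in every library.

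Theta-class GSTs conjugate small halogenated compounds, among other substrates. Gstt3 was 36.9, 45.0 and 43.7 FPKM in PBS replicates 1 to 3 and 21.8, 26.1 and 24.4 FPKM in HA replicates 1 to 3. The groups were well apart, with the highest HA value below the lowest PBS value by more than the range within either group. Gstt3 fell 1.74-fold, from 41.9 ± 4.37 to 24.1 ± 2.20 FPKM (mean ± SD, n = 3 in each group). Its log2 fold change was -0.77 (SE 0.12, limma adjusted p = 0.0438), and it ranked 67 by p among the 10745 genes tested. The call was close to the threshold and was lost without PBS replicate 1, 2 or 3 (limma adjusted p = 0.125, 0.144 and 0.166) or HA replicate 1 or 3 (0.0868 and 0.0897), with log2 fold changes between -0.86 and -0.70 in these fits. Rescaling to fragments outside albumin also ended it, at -0.69 (limma adjusted p = 0.0632). Over all alternatives the adjusted p ran from 0.0393 to 0.166.

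Gstt1, the most abundant theta gene, was 272, 260.0 and 313 FPKM in the PBS livers and 242, 145 and 211 FPKM in the HA livers. All HA values were below the PBS values and HA replicate 2 was the lowest, but the change of -0.52 (SE 0.19) did not pass (limma adjusted p = 0.223). Gstt2 was 42.6, 46.8 and 48.4 FPKM in the PBS livers and 26.5, 63.5 and 36.6 FPKM in the HA livers, so HA replicate 2 was above every PBS library and HA replicates 1 and 3 were below them all. The 3 theta genes thus shared a negative sign without sharing an order of the HA livers.

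Alpha-class GSTs handle lipid peroxidation products and carcinogen epoxides. All 4 tested alpha genes were lower with HA at an unadjusted p under 0.05, against 13.1% of all genes, none of them passed over all genes, and their median log2 change was -0.81. Gsta2 had the lowest log2 change of the 32 tested genes, with 30.9, 27.9 and 33.2 FPKM in the PBS libraries and 3.30, 18.0 and 5.48 FPKM in HA replicates 1, 2 and 3. The HA livers ranged over more than the whole PBS group, and HA replicate 2 was the highest of them. The HA mean was 29.1% of the PBS mean (log2 fold change -1.97, SE 0.48, limma adjusted p = 0.109). Without HA replicate 2, Gsta2 passed at -2.58 (limma adjusted p = 0.00973).

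Gsta1, a low-level neighbour of Gsta2 in sequence and position, was 4.40, 2.30 and 2.64 FPKM in the PBS livers and 1.39, 1.55 and 0.735 FPKM in the HA livers, from 79 to 148 and 24 to 51 fragments per library. The groups were apart, and the change was -0.87 (SE 0.22, limma adjusted p = 0.113). Gsta3, which in mice conjugates the aflatoxin epoxide, was 1056, 807 and 1287 FPKM in the PBS livers and 834, 374 and 732 FPKM in the HA livers. HA replicate 1 lay above PBS replicate 2, so the groups overlapped, and HA replicate 2 was the lowest (log2 fold change -0.75, SE 0.31, limma adjusted p = 0.270). Gsta4, the alpha GST with the greatest preference for hydroxynonenal, was 60.6, 57.2 and 65.7 FPKM in the PBS livers and 43.4, 54.6 and 31.8 FPKM in the HA livers. Its groups did not overlap, although HA replicate 2 came near the lowest PBS library (log2 fold change -0.52, SE 0.19, limma adjusted p = 0.218). HA replicate 2 was thus the highest of the HA livers for Gsta1, Gsta2 and Gsta4 and the lowest for Gsta3. Gsta5 had at most 3 fragments in any library. Gsta1, Gsta2 and Gsta5 are near-identical copies, as are Gstp1 to Gstp3 and several mu genes, so their values are uncertain where fragments could have been split between copies.

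Kappa and microsomal GSTs are membrane or organelle enzymes and are not related in sequence to the cytosolic classes. Gstk1, found in mitochondria and peroxisomes, was 149.8, 169.9 and 167 FPKM in the PBS livers and 113, 117 and 109 FPKM in the HA livers. The HA livers were tightly grouped and all below PBS, at 69.7% of the PBS mean (log2 fold change -0.52, SE 0.10). Gstk1 had the next smallest p after Gstt3 among the 37 genes and did not pass (limma adjusted p = 0.0674). Mgst1, of the endoplasmic reticulum and outer mitochondrial membrane, was 2491, 2809.8 and 2815 FPKM in the PBS livers and 1687, 2170.1 and 1849 FPKM in the HA livers. The groups were apart (log2 fold change -0.51, SE 0.13, limma adjusted p = 0.119), and at 93344 to 157660 fragments per library counting error was small beside the spread between livers. Mgst3 was 21.8, 18.2 and 27.1 FPKM in the PBS livers and 17.0, 15.2 and 15.7 FPKM in the HA livers, again with no overlap (log2 fold change -0.45, SE 0.15, limma adjusted p = 0.186). Mgst2 had 0 to 7 fragments per library and was not tested.

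The mu class behaved differently between HA livers. In all 7 mu genes the groups overlapped and 0 had an unadjusted p under 0.05. In HA replicate 1, 1 of the 7 was below its PBS mean on log2(FPKM + 1), in HA replicate 2 it was 5 and in HA replicate 3 all 7. Of all 10745 genes tested, 6753, 6083 and 7045 were below in HA replicates 1, 2 and 3. The median difference from the PBS mean was 0.30 in HA replicate 1, -0.41 in HA replicate 2 and -0.53 in HA replicate 3. Gstm1, the main mu GST of mouse liver, was 567, 727 and 547 FPKM in the PBS livers and 604, 459 and 422 FPKM in the HA livers (log2 fold change -0.32, SE 0.17, limma adjusted p = 0.386). Gstm3, with the largest standard error of the class, had 15.3, 13.8 and 7.31 FPKM in the PBS libraries and 22.2, 6.63 and 5.28 FPKM in the HA libraries. HA replicate 1 had the highest Gstm3, Gstm5, Gstm6 and Gstm7 of all 6 livers. The median log2 change of the class, -0.28, rested on single libraries. Leaving out HA replicate 1, 2 or 3 gave -0.47, -0.09 and -0.05, and leaving out PBS replicate 1 or 2 gave -0.18 and -0.17.

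The pi and omega classes gave no difference larger than the spread between livers. Gstp1, the main pi GST, was 212, 333 and 237 FPKM in the PBS livers and 371, 375 and 205 FPKM in the HA livers. HA replicates 1 and 2 were above all PBS livers and HA replicate 3 was below them (log2 fold change 0.26, SE 0.27, 95% interval -0.38 to 0.89, limma adjusted p = 0.650). Gstp2 and Gstp3 had log2 changes of -0.23 and -0.17. Gsto1, which reduces dehydroascorbate and methylated arsenic species, was 60.1, 75.7 and 64.5 FPKM in the PBS livers and 51.7, 87.1 and 59.8 FPKM in the HA livers (log2 fold change -0.04, 95% interval -0.50 to 0.42, limma adjusted p = 0.939), and the sign of its change depended on the scaling. Gsto2 had at most 11 fragments in any library.

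**Figure D3:**
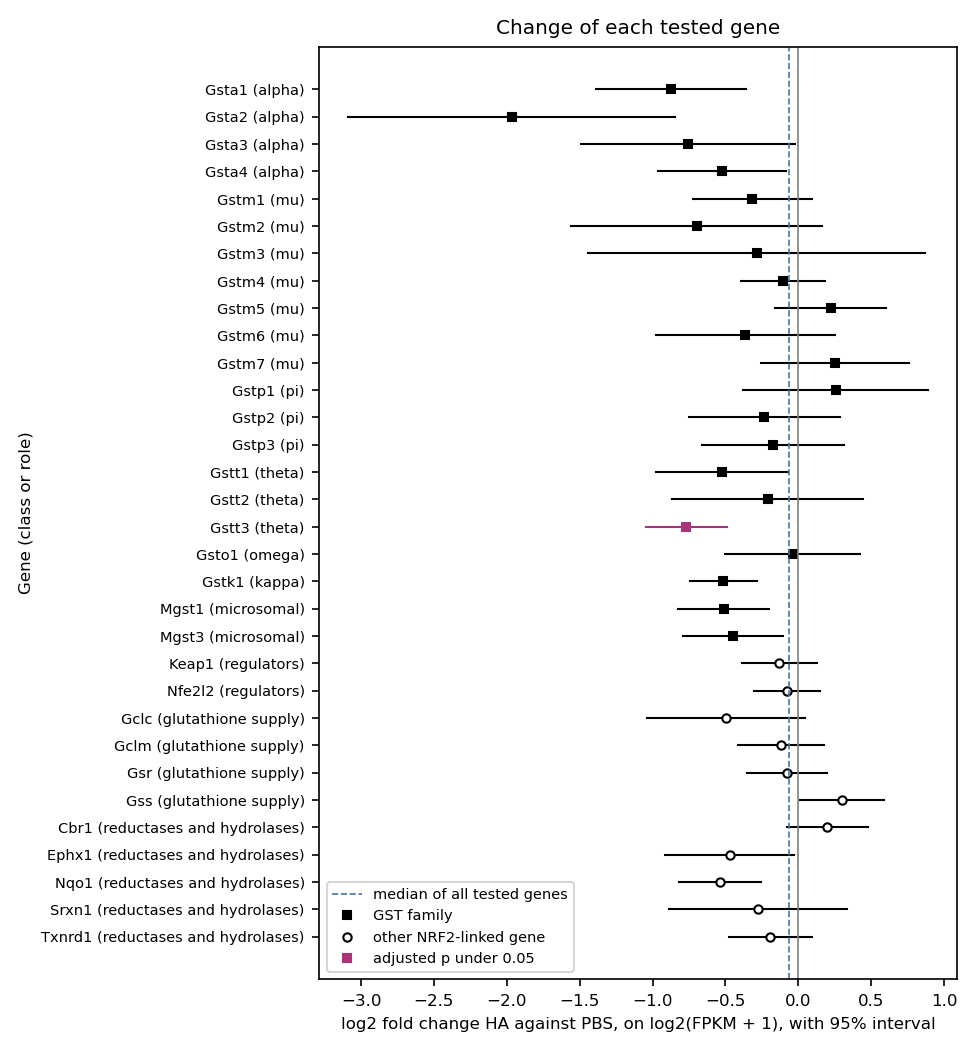
log2 fold change of HA against PBS on log2(FPKM + 1) for the 32 tested genes, with 95% intervals (squares, GST family; open circles, other genes). The dashed line marks the median of all tested genes at -0.06, and Gstt3, in colour, is the 1 gene past the threshold, while Gsta2 lies farthest left at -1.97 with the widest interval below 0.

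The transcripts of NRF2 and its inhibitor differed little between groups. Nfe2l2 was 17.8, 17.6 and 16.4 FPKM in the PBS livers and 15.2, 17.7 and 16.2 FPKM in the HA livers. The groups overlapped, and the log2 fold change of -0.08 had a 95% interval of -0.31 to 0.15 (limma adjusted p = 0.713), with a sign that turned under other scalings (0.01 outside albumin). Keap1 was 9.94, 11.7 and 9.19 FPKM in the PBS livers and 8.84, 9.33 and 9.62 FPKM in the HA livers (log2 fold change -0.13, 95% interval -0.39 to 0.13, limma adjusted p = 0.568). The HA values of both genes fell within or near the PBS range.

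Genes of glutathione supply did not move together. Gclc, the catalytic subunit of the enzyme that makes the first step of glutathione synthesis, was 77.1, 107 and 79.0 FPKM in the PBS livers and 82.7, 44.8 and 61.9 FPKM in the HA livers. HA replicates 2 and 3 were below every PBS liver and HA replicate 1 was within the PBS range (log2 fold change -0.50, SE 0.23, limma adjusted p = 0.313). Gclm, the regulatory subunit, was 64.7, 71.0 and 65.8 FPKM in the PBS livers and 69.2, 52.3 and 64.7 FPKM in the HA livers (log2 fold change -0.12, SE 0.13, limma adjusted p = 0.648). Gss, which completes glutathione, had the highest positive change of the 32, at 27.8, 31.2 and 27.8 FPKM in the PBS livers and 38.9, 30.7 and 38.4 FPKM in the HA livers. HA replicate 2 lay within the PBS range and the other HA livers above it, and the change of 0.30 (SE 0.12) did not pass (limma adjusted p = 0.265). Gsr, which recycles oxidised glutathione, had a log2 change of -0.08. Slc7a11, the cystine importer and a strongly NRF2-responsive gene in many cells, was 0.0246, 0.0187 and 0 FPKM in the PBS livers and 0, 0.0307 and 0.00281 FPKM in the HA livers. This was 0 to 11 fragments per library, and it was not tested.

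Among reductases and hydrolases, Nqo1 and Ephx1 were below PBS in every HA liver and neither passed. Nqo1, a quinone reductase that is widely used as a readout of NRF2, was 3.20, 4.50 and 3.82 FPKM in the PBS livers and 2.51, 2.23 and 2.22 FPKM in the HA livers, at 282 to 602 fragments per library. The HA livers were close together, at 60.4% of the PBS mean (log2 fold change -0.54, SE 0.12, limma adjusted p = 0.0902). Ephx1, the microsomal epoxide hydrolase, was 207, 270.0 and 206 FPKM in the PBS livers and 131, 206 and 159 FPKM in the HA livers. Its groups only just failed to overlap, since HA replicate 2 was at 206.29 and PBS replicate 3 at 206.32 FPKM (log2 fold change -0.47, SE 0.19, limma adjusted p = 0.260). Srxn1, which repairs overoxidised peroxiredoxins, was 13.6, 17.0 and 8.42 FPKM in the PBS livers and 8.48, 13.6 and 9.09 FPKM in the HA livers (log2 fold change -0.28, SE 0.26, limma adjusted p = 0.608). Txnrd1, which reduces thioredoxin, was 28.7, 32.6 and 24.6 FPKM in the PBS livers and 24.0, 24.5 and 26.0 FPKM in the HA livers (log2 fold change -0.19, SE 0.12, limma adjusted p = 0.445). The carbonyl reductase gene Cbr1 had a log2 change of 0.20 (limma adjusted p = 0.418). Cbr3 had 5 to 33 fragments per library and was not tested.

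**Figure D4:**
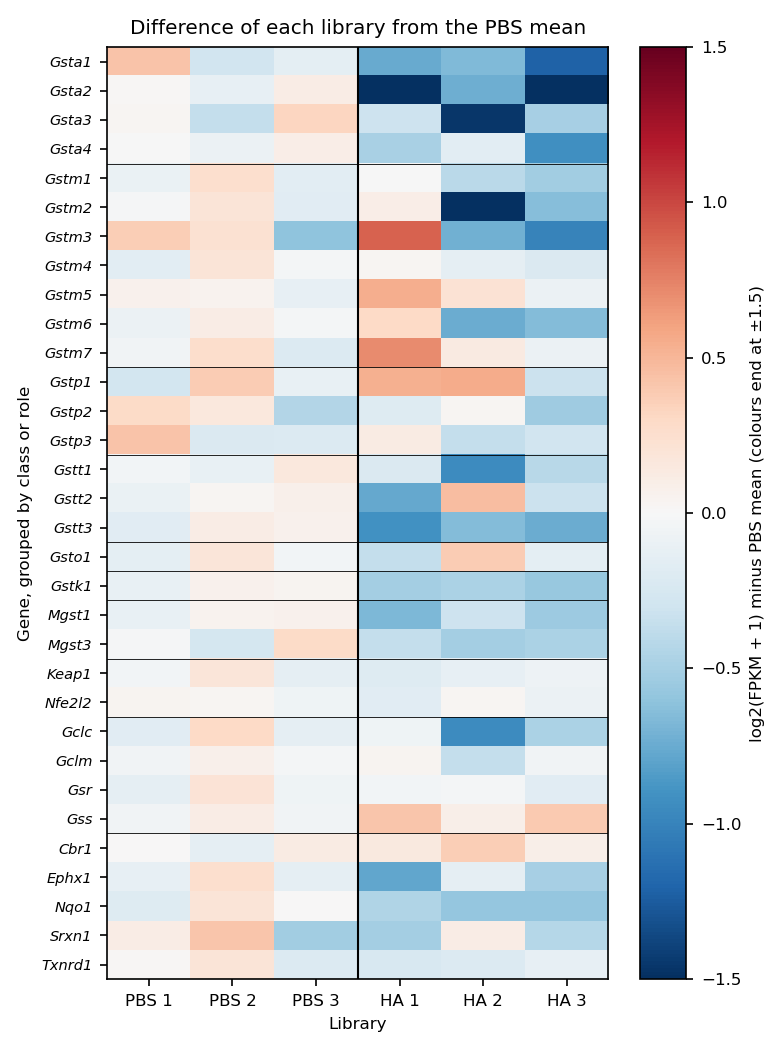
Difference of each library from the PBS mean on log2(FPKM + 1) for the 32 tested genes, grouped by class or role. Alpha, theta, kappa and microsomal rows are mostly blue in the 3 HA columns, while the mu rows are red or near white in HA replicate 1 and mostly blue in HA replicates 2 and 3.

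By library, the median difference of the 21 tested GST-family genes from their PBS means was -0.22, -0.41 and -0.53 in HA replicates 1, 2 and 3. For all genes tested it was -0.08, -0.04 and -0.08. The 11 other genes gave -0.17, -0.12 and -0.12. HA replicate 3 had all 21 GST-family genes below their PBS means, against 13 and 15 in HA replicates 1 and 2. Of all 10745 genes tested, 6753, 6083 and 7045 were below their PBS means in HA replicates 1, 2 and 3. In HA replicate 1 the GST-family share was thus near that of all genes. Among the 3 HA livers, HA replicate 3 was the highest for 2 of the 32 genes, and HA replicates 1 and 2 for 15 each. Levels of albumin, of the pericentral markers and of the red blood cell markers differed between the groups in the ranges given above, and their part in these differences was not tested.

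NRF2 and small MAF proteins bind the antioxidant response element, whose core is TGACNNNGC, where N is any base. RefSeq promoter sequences (GRCm38.p6, 250 bases before to 50 after the start of the gene) were matched by symbol for 32 of the 37 genes, and the core was searched on both strands. It was found in 8 of the 32 (25.0%), against 14.0% of the 27025 genes with such a sequence, in 4 of 21 GST-family genes and 4 of 11 others. The matches follow with 10 bases to each side, 5′ to 3′ on the strand that carries the core, with the core in capitals, to set them beside the changes given above.
Gsta3: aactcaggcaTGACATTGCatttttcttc
Mgst1: ccccgcctccTGACCGTGCcaagccccgc
Gstm5: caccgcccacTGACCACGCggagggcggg
Gstm7: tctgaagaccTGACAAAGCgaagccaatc
Gclm: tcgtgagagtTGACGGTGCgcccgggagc
Srxn1: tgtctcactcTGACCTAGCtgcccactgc
Txnrd1: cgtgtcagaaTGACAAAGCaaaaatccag
Nfe2l2: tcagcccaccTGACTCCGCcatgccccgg
These lie on GRCm38.p6 at chr1:21240454-21240482 for Gsta3, chr6:138140461-138140489 for Mgst1, chr3:107895802-107895830 for Gstm5, chr3:107931725-107931753 for Gstm7, chr3:122245413-122245441 for Gclm, chr2:152105542-152105570 for Srxn1, chr10:82859104-82859132 for Txnrd1 and chr2:75704885-75704913 for Nfe2l2. Genes are on the plus strand except Gstm7 and Nfe2l2, and the core lies on the strand of the gene for Gsta3, Gstm5, Gstm7 and Nfe2l2 and on the other strand for the rest. Srxn1 carries it 29 bases after the start and the others 42 to 240 bases before. Genes with the core had log2 changes from -0.75 for Gsta3 and -0.51 for Mgst1 to 0.25 for Gstm7, so both low and high members are among them. A match is a run of letters and not a bound site.

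Gstt3 and Gsta2, the gene that passed and the gene with the lowest log2 change, held no such core in these windows. Their 250 bases before the start, 5′ to 3′ on the strand of the gene, are given for comparison in lower case.
Gstt3: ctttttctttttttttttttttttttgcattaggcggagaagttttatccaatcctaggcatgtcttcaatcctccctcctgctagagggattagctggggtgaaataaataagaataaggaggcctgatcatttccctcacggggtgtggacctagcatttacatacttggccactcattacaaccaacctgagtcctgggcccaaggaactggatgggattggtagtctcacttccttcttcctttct
Gsta2: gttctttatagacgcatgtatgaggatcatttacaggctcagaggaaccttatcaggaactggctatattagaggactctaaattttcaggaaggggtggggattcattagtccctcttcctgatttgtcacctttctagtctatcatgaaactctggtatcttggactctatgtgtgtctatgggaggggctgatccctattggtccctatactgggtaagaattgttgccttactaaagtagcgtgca
They lie on the minus strand of GRCm38.p6 at chr10:75781423-75781672 for Gstt3 and chr9:78347146-78347395 for Gsta2. The window is short, and elements farther away were not searched.

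Other genes of the pathway were counted over whole lists, and the genes named from each list are those with its smallest p. The lists were chosen with earlier results of these data known. Of 25 further NRF2 targets, 23 were tested, 2 fell and 0 rose. At an unadjusted p under 0.05 in limma, 15 were lower and 0 higher, against 13.1% and 4.61% of all genes. Every HA value lay below every PBS value in 15 (65.2%, against 19.2% of all genes) and above in 0 (against 6.47%). The log2 change was negative in 20 and positive in 3, with a median of -0.53 against -0.06 for all genes. Aox1, an aldehyde oxidase, was 17.3, 17.8 and 16.1 FPKM in the PBS livers and 9.45, 8.04 and 10.5 FPKM in the HA livers (log2 fold change -0.81, SE 0.12, limma adjusted p = 0.0411). Entpd5, a nucleoside diphosphatase of the endoplasmic reticulum, was 64.6, 61.6 and 59.7 FPKM in the PBS livers and 28.8, 28.2 and 39.4 FPKM in the HA livers (log2 fold change -0.94, SE 0.14, limma adjusted p = 0.0424). In both, every HA liver was well below every PBS liver. Both calls were close to the threshold, and of 15 alternatives 5 kept that of Aox1 (limma adjusted p from 0.0367 to 0.169) and 4 that of Entpd5 (0.0268 to 0.173). The call of Aox1 was lost without any single library except HA replicate 2 (limma adjusted p = 0.169, 0.137 and 0.140 without PBS replicate 1, 2 or 3, and 0.0794 and 0.0586 without HA replicate 1 or 3). That of Entpd5 was lost without any except HA replicate 3 (0.173, 0.138 and 0.147 without PBS replicate 1, 2 or 3, and 0.0868 and 0.0570 without HA replicate 1 or 2). Ftl1, the ferritin light chain, had the next smallest p and did not pass (3338 ± 173 and 2005 ± 256 FPKM, limma adjusted p = 0.0555).

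Of 9 partners and brakes of NRF2, 0 passed (limma, 1 lower and 0 higher at an unadjusted p under 0.05, against 13.1% and 4.61% of all genes) and the median log2 change was -0.20 against -0.06. Every HA value lay below every PBS value in 2 of the 9 (22.2%), near the 19.2% of all genes, and above in 0, against 6.47%. Nfe2l1, a transcription factor related to NRF2, was 28.6 ± 2.65 and 18.1 ± 3.44 FPKM (limma adjusted p = 0.104), and Sqstm1, an adaptor that binds KEAP1, 76.1 ± 15.7 and 59.7 ± 3.15 FPKM (limma adjusted p = 0.307). Of 17 tested genes of glutathione use and breakdown, 0 passed, with a median log2 change of -0.22 against -0.06. At an unadjusted p under 0.05 in limma, 4 were lower and 0 higher, against 13.1% and 4.61% of all genes. Every HA value lay below every PBS value in 5 (29.4%, against 19.2% of all genes) and above in 0 (against 6.47%). The steadiest was Gstz1, a GST of the zeta class that acts in tyrosine breakdown, at 224, 219 and 225 FPKM in the PBS livers and 168, 166 and 169 FPKM in the HA livers, 75.4% of the PBS mean (limma adjusted p = 0.0864). The glutathione peroxidases Gpx1 and Gpx4 stood at 62.5% and 64.7% of their PBS means (limma adjusted p = 0.0561 and 0.0600).

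The xenobiotic receptors CAR, PXR and AhR also control GST genes. Of 13 tested genes of this list, 0 passed, with a median log2 change of -0.58 against -0.06. At an unadjusted p under 0.05 in limma, 4 were lower and 1 higher, against 13.1% and 4.61% of all genes. Every HA value lay below every PBS value in 4 (30.8%, against 19.2% of all genes) and above in 0 (against 6.47%). The cytochrome P450 gene Cyp2c29 was 527 ± 58.2 FPKM in PBS livers and 300.5 ± 56.5 FPKM in HA livers (limma adjusted p = 0.0735). Cyp2b13, of the same superfamily, was 2.02 ± 0.195 and 0.905 ± 0.458 FPKM (limma adjusted p = 0.107). Aldh1a1, which oxidises retinaldehyde, was 754 ± 15.7 and 303 ± 133 FPKM (limma adjusted p = 0.0990). The 1 gene on the higher side, Cyp3a11, was 797 ± 100.4 and 1169 ± 324 FPKM, with groups that overlapped (limma adjusted p = 0.246). The albumin share and the pericentral markers given above differed between the same groups, and their part in the values of these lists was not tested.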

How the data were processed

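RNA of 6 mouse liver samples, 3 per group by treatment label, was measured by RNA sequencing. The authors deposited FPKM values for 16638 genes, 1 column per sample. The unit was read from the values, since the header gives sample names alone. Trimmomatic and HISAT2 were used with GRCm39, per the submitters' processing notes. For the counter, annotation, filters and use of strand, nothing is given in the sources used here. Per the labels' protocols, 2 library kits are named, with no word on which was used for which library.

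Steps between low FPKM values gave whole fragments and library totals, and all 99828 values came out whole within 0.0001, which assumes the smallest whole numbers that fit. Fold-change intervals are limma's and describe the spread between samples. Two-sided limma tests (version 3.58.1, under R 4.3.3) were fitted to log2(FPKM + 1), with a variance trend and treatment as the only term. They covered the 10745 genes averaging 0.5 FPKM or more, with Benjamini-Hochberg adjustment. Fold changes on this scale understate those of low genes. Folds and percents of means are on the FPKM scale. The fit was tested on simulated data.

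Values in every library are given for 22 genes taken by a rule: those past the threshold, the 12 with the smallest p, the highest gene of each GST class, and 8 genes of NRF2 control and response. Of the other lists, genes past the threshold or among the 3 smallest p of a list were named. Genes outside these rules were named after their values were seen (Gsta5, Gstt2, Gstm3, other mu and pi genes, Gsto2, Mgst2, Gsr, Cbr1, Cbr3, Cyp3a11 and single cell type markers), and Gstt2, Gstm3, Aox1, Entpd5 and Gstz1 are also given by library. The genes and lists were chosen with earlier results of these data known. RefSeq promoters are from GRCm38.p6, another build than the data, and were matched by symbol. Alternatives changed the pseudocount, the filter, the scaling, the unit, the variance trend and the libraries used. Those on counts of groups that do not overlap, counts of negative changes, class medians, Aox1 and Entpd5 were chosen after seeing the data.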

Additional observations from a re-analysis of the deposited data

How the results depend on the processing

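Of the 15 alternatives tried, 4 kept Gstt3 past the threshold: a pseudocount of 0.1, a filter at a mean of 1 FPKM, no variance trend and the fit without HA replicate 2. The number of listed genes called lower was 0 with no filter, median centring, scaling outside Alb, voom with TMM and voom with median-ratio factors on recovered fragments, against 1, and 0 to 2 when single libraries were left out. The number called higher was 0 throughout. Over all genes, 55 lower and 31 higher calls became 10 and 7 with no filter; lower and higher calls were 32 and 36 with median centring, 24 and 33 outside Alb, and 15 and 28 or 11 and 25 with the 2 voom fits. Leaving out single libraries gave 4 to 69 lower and 1 to 46 higher calls. The GST-family median ran from -0.49 to -0.22 and that of the other genes from -0.20 to -0.07 in those fits. Groups did not overlap, with HA lower, in 10 to 17 of the 32 genes and in 8 to 14 GST-family genes. Over all genes tested this share went from 19.2% with all libraries up to 28.9% without HA replicate 2. Negative changes were found in 25 to 27 of the 32 genes, against 59.5 to 66.3% of all genes tested. Of 27 genes with a negative change, 21 kept the sign under every alternative. Gsto1 turned to 0.02 with median centring (0.025), 0.05 outside Alb (0.047) and 0.05 with both voom fits, and ran from -0.25 to 0.12 across left-out libraries. Nfe2l2 turned to 0.01 outside Alb (0.006) and with both voom fits (0.009). The causes were not tested.

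Replicate numbers did not pair the samples: deviations of same-numbered samples correlated at -0.14, -0.12 and 0.18. With a replicate block, 9 genes were called lower, 7 higher and 0 of the listed genes lower, and Gstt3 was at -0.77 (limma adjusted p = 0.0952). The listed genes under 0.5 FPKM had at most 33 fragments a library, which limits what could be detected.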
